A study of Macaca mulatta with 81 samples.

Results

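The genes described here are the ZNF genes of the rhesus macaque with a number under 500, measured in T cells of the blood before and after haematopoietic cell transplantation (HCT). A gene was taken when its symbol in the array's gene table was ZNF followed by such a number and nothing else, when it had a probe set assigned to that gene alone, and when its brightest probe set exceeded log2 4.65 in at least 2 arrays. That limit is the 40th percentile of all values in the table. Of 143 candidate genes 126 passed and are called the ZNF members below, out of 11807 genes tested. The 17 that did not pass included ZNF475, ZNF30 and ZNF302 just under the limit, with second-highest arrays at log2 4.35, 4.46 and 4.58. The others were ZNF70, ZNF112, ZNF132, ZNF157, ZNF165, ZNF181, ZNF197, ZNF214, ZNF229, ZNF391, ZNF396, ZNF415, ZNF423 and ZNF485. Just above it lay ZNF121, ZNF287 and ZNF253, with second-highest arrays at 4.81, 5.02 and 5.09. Members that passed through the group in which they were brightest could differ between groups for that reason alone, so counts of members refer to measured members only.

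Most ZNF genes code for proteins whose zinc fingers of the C2H2 type each read a few bases of DNA. The largest class carries a KRAB domain, which recruits the scaffold protein TRIM28, and TRIM28 in turn brings the histone methyltransferase SETDB1 and the HP1 proteins that silence chromatin, mainly at retroelements and at other ZNF genes. KRAB genes multiplied by local duplication and many of them sit next to each other in clusters. The symbol names a fold rather than a function, and other members activate transcription or act in chromatin complexes, in cell division or on RNA.

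The study hybridized 81 arrays of CD3+ T cells sorted by flow cytometry from the peripheral blood of 50 animals. Of these, 34 arrays came from healthy, untransplanted animals (Healthy.Control) and 47 from 27 transplanted animals, and 11 animals gave both kinds. Recipients of an autologous transplant without prophylaxis were sampled on day 14 (Auto.D14, n = 3) and day 36 (Auto.D36, n = 3). Recipients of an allogeneic transplant, in which donor T cells can attack the host (graft-versus-host disease, GVHD), received no prophylaxis (NoRx.F, n = 4) or one of several regimens. The labels shorten the regimens to Siro, Tac with Mtx, Bela, Bela with Siro, FR104, and FR104 with Siro, which are taken to be sirolimus, tacrolimus with methotrexate, the CD28 ligand blocker belatacept, and the CD28-blocking antibody fragment FR104. Their groups were Siro.F (n = 4), Tac.Mtx.D14 (n = 3), Tac.Mtx.D30 (n = 2), Tac.Mtx.F (n = 3), Bela.F (n = 3), Bela.Siro.D14 (n = 3), Bela.Siro.D30 (n = 3), Bela.Siro.F (n = 2), FR104.D14 (n = 3), FR104.F (n = 3), FR104.Siro.D14 (n = 4) and FR104.Siro.F (n = 4). The suffix F marks a final sample whose day the labels do not give, and D gives the nominal day. FR104.Siro.D14 also held arrays of day 22 and day 34, and Bela.Siro.D30 held 1 array of day 29. The labels give no age, sex, conditioning or donor match.

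The NoRx.F arrays lay in batches 1 (3 arrays) and 2 (1 array), Siro.F in the same batches, the Tac and Bela groups in batch 3, and the FR104 and Auto groups in batch 4. Healthy controls lay in all 4 batches, with 5, 10, 13 and 6 arrays. Array medians ran from log2 5.12 to 5.31. The labelled cell type could be checked with 1 of 6 listed T cell markers, CD5, which lay between log2 10.24 and 11.34 in the healthy arrays and between 10.14 and 10.68 in NoRx.F. In 8 arrays the added hybridization controls were brighter than in any healthy array. They were all 4 of FR104.Siro.D14, replicate 202 of Auto.D14, 38 of Bela.Siro.F, 23 of FR104.D14 and 29 of FR104.Siro.F. Results that rest on them are given with and without them below, except for FR104.Siro.D14, where no other array remains. The ratio of actin signal at the 3′ over the 5′ end, a sign of RNA quality, was log2 0.430 to 3.83 in healthy arrays and 0.61 to 1.14 in NoRx.F. It lay below the healthy range in Auto.D36 (-0.34 to -0.30), FR104.D14 (0.02 to 0.37) and FR104.F (0.095 to 0.425). The lowest arrays of Auto.D14 (0.29), FR104.Siro.D14 (0.23) and FR104.Siro.F (0.06) lay below it too.

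Across the 126 ZNF members, means over healthy arrays ran from log2 4.01 to 10.37 with a median of 6.98, and the spread between healthy animals was small, with a median SD of 0.24 (0.13 to 0.63). Brightness depends on the probes, so no member is ranked against another by level. The 16 group means of a member spanned a median of 0.72 log2 units, from 0.25 to 2.46, and 29 members spanned more than 1. No member had its lowest group mean in the healthy group, whereas 35 had it in NoRx.F, 20 in Auto.D36, and 13 each in Bela.Siro.D30 and FR104.Siro.D14. Groups of 2 to 4 arrays reach extreme means more easily than a group of 34. The mean over all members was 6.66 to 6.78 in the 4 NoRx.F arrays and 6.83 to 7.13 in the 34 healthy arrays, and the ranges did not overlap. Auto.D36 lay at 6.73 to 6.85 and Siro.F at 6.86 to 6.95. In bulk samples, fewer cells of a type and less RNA per cell cannot be told apart.

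The 10 members with the widest spans fell into a few shapes. ZNF395, a factor induced by hypoxia, spanned 2.46, from 6.86 in NoRx.F to 9.32 in Healthy.Control. The KRAB gene ZNF222 spanned 2.22, from 6.07 in NoRx.F to 8.29 in Tac.Mtx.D30, and ZNF250 spanned 1.62, from 5.89 in NoRx.F to 7.50 in FR104.D14. The lowest mean lay in Auto.D36 for 4 of the 10. These were ZNF462 (4.21, against 6.23 in Tac.Mtx.D14), ZNF135 (3.94, against 5.80 in FR104.Siro.F), ZNF471 (4.16, against 5.68 in Tac.Mtx.D14) and ZNF114 (4.94). ZNF114 was highest in NoRx.F, at 6.72. The remaining 3 were ZNF215, from 6.42 in Tac.Mtx.D30 to 7.95 in Tac.Mtx.D14, ZNF45, from 4.95 in FR104.Siro.D14 to 6.29 in Auto.D36, and ZNF397, from 5.85 in Bela.Siro.D30 and in NoRx.F to 7.15 in Tac.Mtx.D14.

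**Figure D1:**
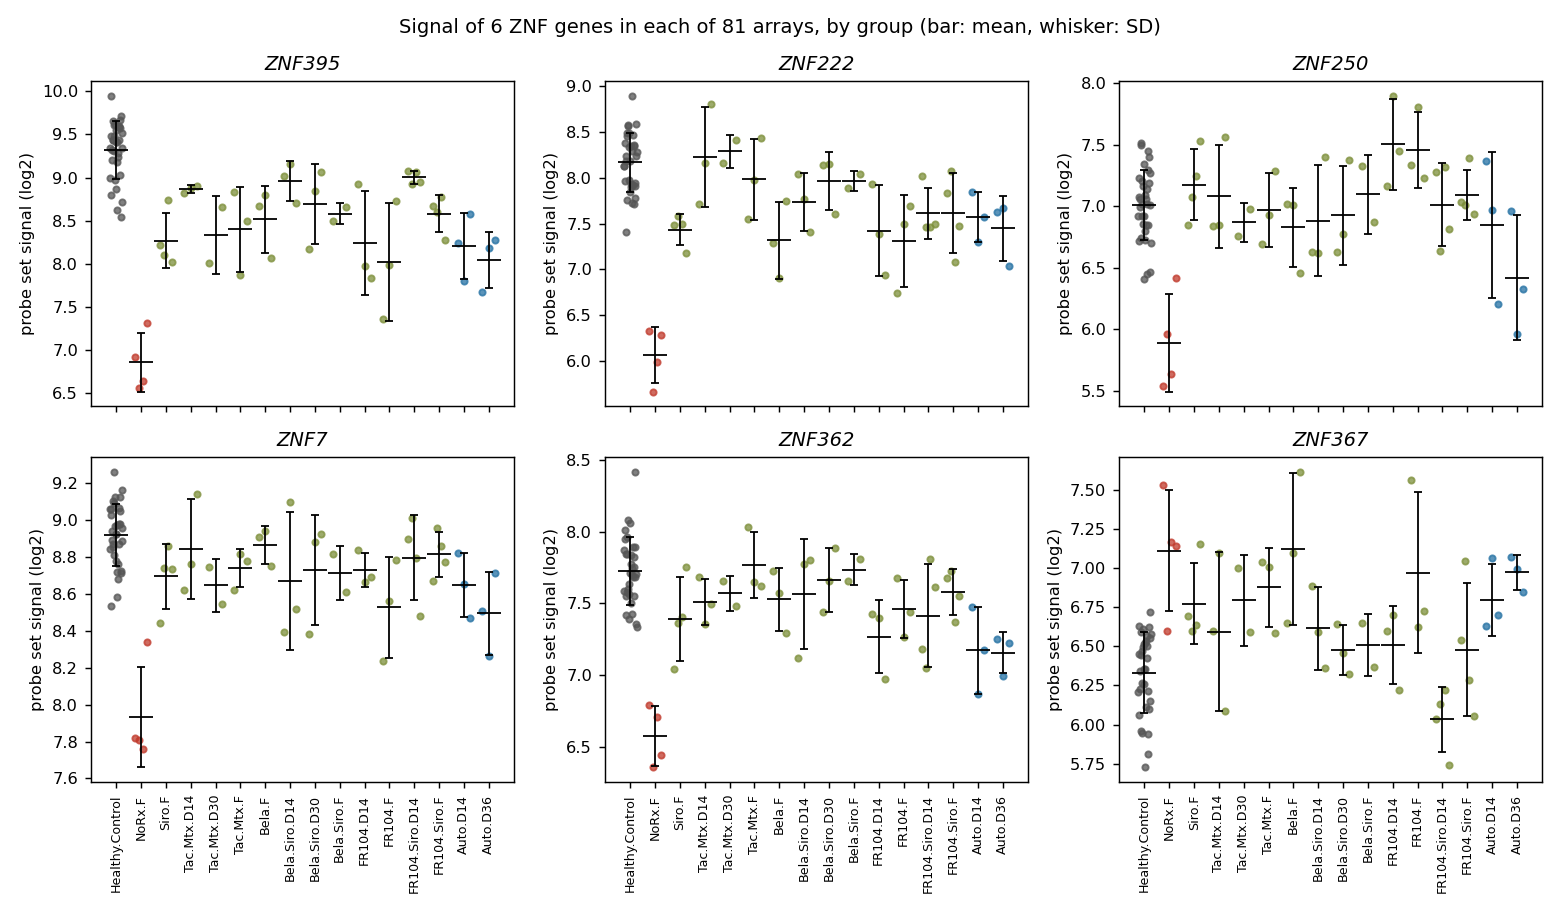
Log2 probe set signal (vertical axis) of ZNF395, ZNF222, ZNF250, ZNF7, ZNF362 and ZNF367 in each of the 81 arrays by group label; each point is 1 array, bars are group means and whiskers the SD. For ZNF395 and ZNF222 the 4 NoRx.F points lie below all 34 healthy points.

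The comparison of NoRx.F with healthy animals asks what T cells look like after an allogeneic transplant with nothing given against GVHD. The ZNF members were mostly lower in NoRx.F. With limma (adjusted p under 0.05), 44 of the 126 members fell and 7 rose, that is 34.9% and 5.56% of them. Over all genes tested 15.4% fell and 20% rose, so the members fell more often and rose less often than the background of this comparison. Their median change was -0.19 on the log2 scale against 0.05 for all genes. Leaving out each NoRx.F array in turn gave 42 to 49 called members. After a renewed quantile normalization 40 fell and 13 rose. Within batch 1 42 fell and 6 rose, and within batch 2, with its 1 NoRx.F array, 7 fell and 1 rose. The 4 NoRx.F arrays came from 4 animals, of which replicate 53 also gave a healthy array, so these p-values mainly measure the spread between animals.

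ZNF395 showed the largest fall. Its signal in the healthy arrays ran from 8.54 through a median of 9.41 to 9.95, with a mean of 9.32 ± 0.33 (SD, n = 34). The NoRx.F replicates 50, 51, 52 and 53 read 6.91, 6.56, 6.64 and 7.32. All 4 lay more than a log2 unit below the lowest healthy animal. The fitted change was -2.46 ± 0.21 (SE), a 5.49-fold fall with a limma adjusted p of 5.47e-15, and it was -2.74 within batch 1 and -1.94 within batch 2. The gene has 3 other probe sets, which changed by -0.74, -0.08 and 0.21 between group means, and the mean over its 4 probe sets gave -0.77 with a limma adjusted p of 5.21e-07. The size of this fall is therefore that of 1 probe set.

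ZNF222 ran from 7.40 through 8.21 to 8.89 in healthy animals. The NoRx.F arrays read 6.33, 5.66, 5.98 and 6.28 in the same order of replicates. The groups were again apart by more than a log2 unit. The change was -2.09 ± 0.21, a 4.26-fold fall (limma adjusted p = 7.03e-13), and it was -2.14 in batch 1 and -1.90 in batch 2.

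Other large falls included KRAB genes and ZNF362, a relative of ZNF384. ZNF7 read 8.53 to 9.26 in healthy animals (median 8.93) and 7.82, 7.81, 7.76 and 8.34 in NoRx.F. No array overlapped, although replicate 53, the array of batch 2, stood nearer the healthy range than the other 3. ZNF7 fell by 0.98 on the log2 scale (SE 0.12, limma adjusted p = 5.13e-10), a 1.97-fold fall, and the change in batch 2 alone was -0.55 and not called. ZNF362 read 7.33 to 8.42 in healthy animals and 6.79, 6.35, 6.71 and 6.44 in NoRx.F, without overlap, a change of -1.14 ± 0.15 (limma adjusted p = 1.82e-09). ZNF23 read 6.66 to 7.65 in healthy animals and 6.32, 6.16, 6.06 and 6.64 in NoRx.F. Its groups stood apart, by a hair at replicate 53, with a change of -0.96 ± 0.15. ZNF250 read 5.54, 5.96, 5.64 and 6.41 against 6.41 to 7.51, so replicate 53 met the edge of the healthy range, and its change was -1.09 ± 0.20.

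Of the remaining 4 of the 10 largest falls, ZNF248 changed by -1.19 ± 0.18, ZNF460 by -1.10 ± 0.23 and ZNF350 by -0.94 ± 0.16, all 3 with NoRx.F arrays below every healthy array. ZNF350 is the KRAB protein that binds BRCA1, the DNA repair factor. ZNF397, of the SCAN class, changed by -1.24 ± 0.24 (healthy 6.002 to 7.69, NoRx.F 5.51, 5.78, 5.73 and 6.37), and its replicate 53 lay inside the healthy range. Next in size, ZNF141 changed by -0.90 ± 0.20, with 1 overlapping array. With the mean over probe sets ZNF397 changed by -0.58 and ZNF460 by -0.54. In all, 12 members lay below every healthy array in all 4 NoRx.F arrays and 0 lay above, against 4.90% and 7.39% of all genes. The 12 were ZNF395, ZNF222, ZNF248, ZNF362, ZNF460, ZNF7, ZNF23, ZNF350, ZNF441, ZNF32, ZNF92 and ZNF451.

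**Figure D2:**
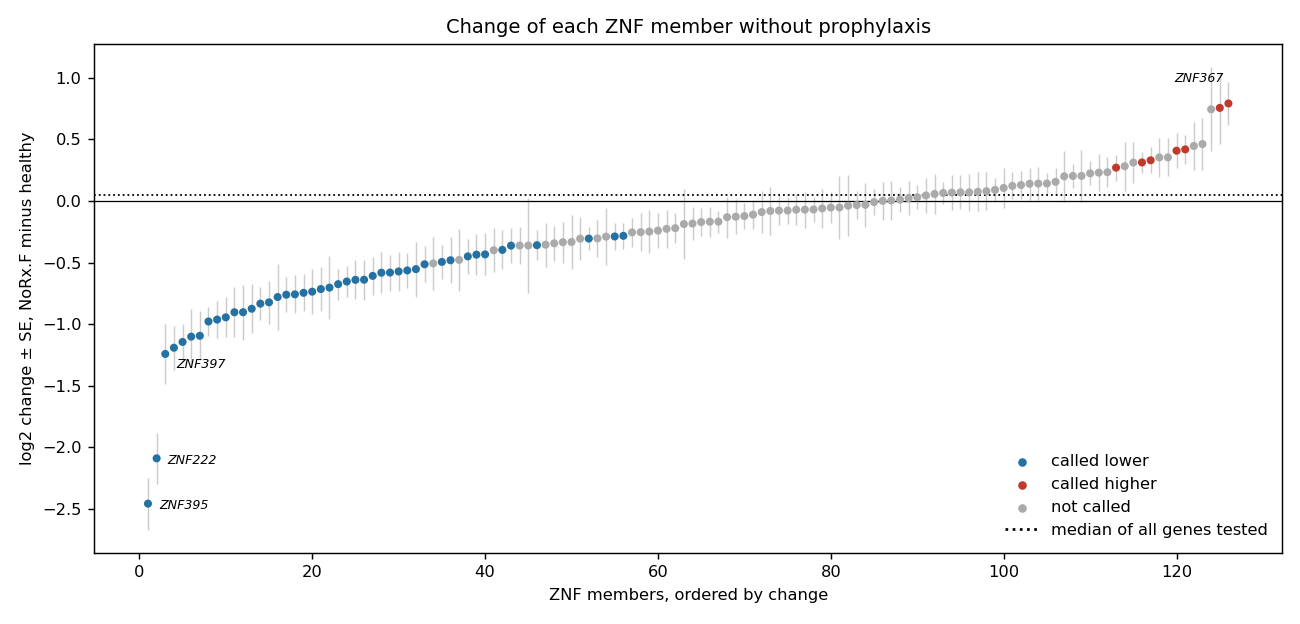
Log2 change of the ZNF members in NoRx.F against Healthy.Control (vertical axis, with its standard error), ordered by size; blue and red mark falls and rises past a limma adjusted p of 0.05, and the dotted line is the median of all genes. Falls (44) outnumber rises (7), and ZNF395 and ZNF222 stand apart at the lower end.

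Rises were few and smaller. ZNF367, a factor linked to the cell cycle, read 5.73 to 6.72 in healthy animals (median 6.39) and 7.53, 6.60, 7.17 and 7.14 in NoRx.F. Replicates 50, 52 and 53 lay above the healthy range and replicate 51 inside it. The change was 0.79 ± 0.18 (limma adjusted p = 2.10e-04), and it was 0.75 within batch 1 and 0.81 within batch 2. The other 6 rises were ZNF177 at 0.76 ± 0.29, the nucleolar protein gene ZNF330 at 0.42 ± 0.12, ZNF143 at 0.41 ± 0.14, ZNF205 at 0.33 ± 0.11, ZNF408 at 0.31 ± 0.09 and ZNF22 at 0.27 ± 0.11. Most of these 6 rested on single arrays or probe sets. The call of ZNF143 was lost without replicate 53 (0.16), that of ZNF205 without replicate 51 (0.23), that of ZNF22 without replicate 52 (0.22) or 53 (0.17), and that of ZNF177 without replicate 50, 51 or 52 (0.64 to 0.78). ZNF330 lost its call with the mean over probe sets (0.14). ZNF408 changed by 0.29 within batch 1, without a call.

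By role, the listed KRAB repressors fell or did not pass the test. Of 12 measured, 6 fell and 0 rose, against 15.4% and 20% of all genes, with a median of -0.35. The list leaves out other KRAB genes among the members, and the rises above were not sorted by domain. Its counts are therefore not those of the KRAB class. The 6 were ZNF350, ZNF141 (both above), ZNF445 (-0.82 ± 0.17), which maintains genomic imprints, ZNF331 (-0.75), ZNF91 (-0.44), which silences retroelements, and ZNF263 (-0.30). The other probe set of ZNF445 changed by -0.06 between group means and had an r of -0.26 with the one used. The calls of ZNF91 and ZNF263 were lost without 1 NoRx.F array, for ZNF91 replicate 50 or 53 (-0.34 and -0.38) and for ZNF263 replicate 52 (-0.25). The other 6 had values of -0.40 for ZNF10, the classic KRAB repressor KOX1 (limma adjusted p = 0.076), -0.31 for ZNF394, -0.17 for ZNF317, 0.01 for ZNF202, 0.06 for ZNF268 and 0.12 for ZNF300. ZNF10 passed the test when arrays of 1 animal were blocked (-0.45, limma adjusted p = 0.045).

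Among 13 activators, GC box factors and chromatin partners, 3 fell and 1 rose, with a median of -0.25. ZNF395 fell most. ZNF217, a partner of the CoREST corepressor, fell by 0.90 on the log2 scale (SE 0.22). Its NoRx.F arrays read 8.99, 9.27, 9.36 and 10.19 against 9.70 to 11.08 in healthy animals, so replicate 53 lay inside the healthy range, and the change was -1.31 in batch 1 and -0.11 in batch 2. ZNF219 changed by -0.64 and lost its call without replicate 53 (-0.41, limma adjusted p = 0.089). Its other probe set, dim at a healthy mean of 4.90, changed by -0.001 between group means. Across the arrays that probe set had an r of -0.01 with the one used, so the changes of ZNF219 rest on 1 probe set. ZNF143, an activator of small nuclear RNA and housekeeping promoters, rose as given above, while its paralog ZNF76 was at -0.17. The rest did not pass, with -0.51 for ZNF292, -0.36 for ZNF462, -0.33 for the GC box factor ZNF148, -0.25 for ZNF24, -0.08 for ZNF131, -0.05 for ZNF335, 0.07 for ZNF384 and 0.23 for ZNF341, which drives STAT3 transcription. Among 8 members listed for cell division, SUMO, RNA or other functions, ZNF367 and ZNF330 rose and the SUMO ligase ZNF451 fell (-0.58), with a median of 0.10. Of all genes 20% rose and 15.4% fell in this comparison. The others were at -0.11 for ZNF346, 0.00 for ZNF326, 0.07 for ZNF277, 0.13 for ZNF185 and 0.20 for ZNF106.

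Transcripts of the silencing machinery moved in both directions, and its proteins were not measured. Of 27 measured genes 9 rose and 5 fell in NoRx.F, against 20% and 15.4% of all genes. This list is wider than TRIM28, SETDB1 and the HP1 genes. TRIM28, the shared partner, had means of 9.22 in NoRx.F and 9.10 in healthy animals (limma adjusted p = 0.416). SETDB1 had means of 8.16 and 8.14 (limma adjusted p = 0.914). UHRF1, which maintains DNA methylation at replication, rose by 3.46 ± 0.39, from 5.53 to 8.98 (limma adjusted p = 4.82e-11), and CBX5, an HP1 protein, rose by 1.51 ± 0.25. MTA2, of the NuRD complex, rose by 0.52 ± 0.11, and the methyltransferase gene EHMT1 fell by 0.45 on the log2 scale (SE 0.10).

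Markers of proliferation and of other cells moved in the same comparison. All 15 measured genes of the cell cycle list (22 listed) rose, and their mean was 9.21 to 10.21 in the NoRx.F arrays against 6.68 to 7.74 in healthy arrays. Of 8 monocyte and myeloid markers 4 rose (6.65 to 9.04 against 5.01 to 8.14), and of 4 NK cell markers 2 fell (8.44 to 10.14 against 9.25 to 10.74). In the B cell list 1 of 4 rose and in the plasma cell list 1 of 3, while 0 of 4 were called in each of the erythroid, platelet and granulocyte lists. CD5 fell by 0.44 on the log2 scale. Their part in the fall of the ZNF members was not tested.

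Other zinc finger families were measured in the same comparison. Of 110 tested ZNF genes numbered 500 and over 33 fell (30.0%), of 28 ZFP, ZSCAN and ZKSCAN genes 9 fell (32.1%), and of 33 ZBTB genes 10 fell (30.3%). Rises numbered 10, 2 and 2. Of all genes 15.4% fell and 20% rose. The shares of falls in these families were near that of the ZNF members, so frequent falls were not particular to numbers under 500. Members brighter than the middle member by their mean over all arrays fell in 27 of 63 cases and the dimmer ones in 17 of 63. Members with 1 probe set fell in 22 of 64 cases and those with several in 22 of 62. Where a fallen member had further probe sets bright enough to exceed the limit in healthy animals, 17 of 21 (from 16 genes) were also lower in NoRx.F and 4 were higher. Without that limit 25 of 35 (from 22 genes) were lower and 10 higher. These counts use the sign of the difference of group means, however small. Over all members the 98 other probe sets followed the one used only loosely across the 81 arrays, with a median Pearson's r of 0.29; 25 had an r above 0.5 and 16 had an r below 0. These r are descriptions across arrays that share group and batch.

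Gene order gave a further split, made after the values were seen. Of the 126 members 121 matched the RefSeq gene table of assembly T2T-MMU8v2.0 (not ZNF205, ZNF24, ZNF28, ZNF76 and ZNF91), and 52 of them (43.0%) had a gene named as a zinc finger directly next to them, against 3.09% of 11128 matched tested genes. In NoRx.F, 24 of these 52 fell and 1 rose, against 15.4% and 20% of all genes, with a median of -0.30. A neighbour without a family name, which could be of any family, was found beside 33 further members, of which 11 fell and 1 rose (median -0.25). The 36 members between named genes of other families fell in 8 cases and rose in 4, with a median of 0.00. Neighbouring copies can share sequence and their probe sets can then read both, so these members are not independent of each other.

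**Figure D3:**
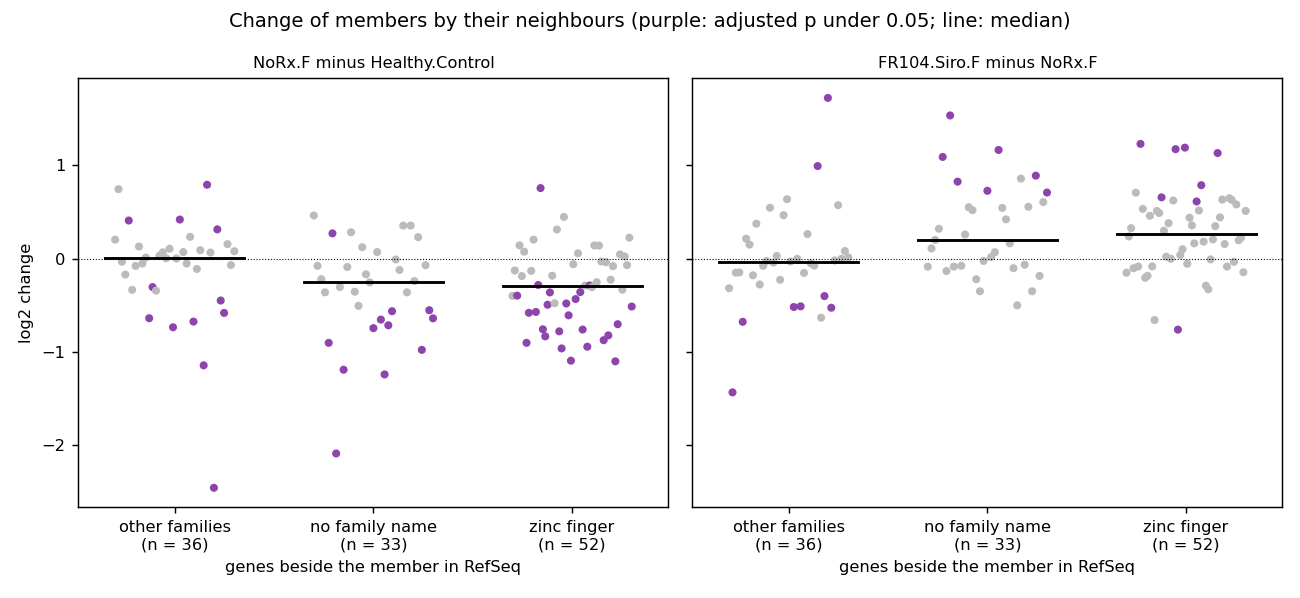
Log2 change of the ZNF members by the kind of gene next to them, for NoRx.F against Healthy.Control and for FR104.Siro.F against NoRx.F; each point is 1 member, purple points are called by limma and lines are medians. The 5 members without a match are not drawn. Both comparisons use the same NoRx.F arrays, with opposite sign, so they are not independent. The NoRx.F medians were -0.30 beside a named zinc finger gene and 0.00 between named genes of other families.

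Autologous recipients, whose graft is their own, were compared with healthy animals at each of their sampling days. On day 14 the members fell in 4 cases and rose in 0, against 1.92% and 2.47% of all genes. ZNF395 read 8.24, 7.80 and 8.57 in replicates 201, 202 and 200, with 1 of the 3 inside the healthy range, and its change was -1.11 ± 0.25 (limma adjusted p = 0.0054). ZNF219 changed by -0.73 ± 0.19, ZNF10 by -0.73 ± 0.21 and ZNF362 by -0.56 ± 0.17. Without replicate 202, an array of high control signal, 0 members were called, without replicate 201 7 were, and within batch 4 0 were. With arrays of 1 animal blocked 10 were called. At an unadjusted p under 0.05 the count was 25 of 126 members and 2173 of all genes. Of the silencing machinery UHRF1 rose (1.96 ± 0.46) and the methyltransferase gene EHMT2 fell (-0.46 ± 0.12). The cell cycle list was at 8.13 to 8.55, above the healthy range, and 12 of its 15 genes rose. The B cell marker MS4A1 (-1.81) and the plasma cell marker JCHAIN (-1.43) fell in the same arrays, and the part of these lists in the calls was not tested.

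On day 36 of the autologous course 22 members fell and 5 rose (17.5% and 3.97%), against 8.89% and 7.83% of all genes, and the medians were -0.17 and -0.01. ZNF135 read 4.12, 3.65 and 4.05 in replicates 201, 200 and 202, all below the healthy range of 4.23 to 6.42. Its change was -1.34 ± 0.34 (limma adjusted p = 0.0037). ZNF395 read 7.67, 8.18 and 8.28, below every healthy array, with a change of -1.27 ± 0.25. ZNF10 read 5.09, 5.20 and 4.73 against 5.23 to 6.49 in healthy animals, again without overlap, with a change of -1.002 ± 0.21. In total 11 of the 126 members lay below and 3 above every healthy array, against 4.29% and 4.56% of all genes. By role, 5 of the 12 listed KRAB repressors fell and 0 rose (median -0.37). The list leaves out other KRAB genes, and the rises given below were not sorted by domain. These counts are therefore not those of the KRAB class. Of 13 activators and chromatin partners 5 fell, among them ZNF219 (-0.94 ± 0.19) and ZNF335 (-0.60). ZNF335 is a part of a histone H3 methyltransferase complex needed for T cell maturation.

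The 3 largest rises in Auto.D36 were ZNF267, ZNF367 and ZNF426. ZNF267 read 10.26, 9.30 and 9.89 against 8.20 to 9.70 in healthy animals, so 2 of the 3 arrays lay above the range, and it changed by 0.77 ± 0.24. ZNF367 read 7.072, 6.996 and 6.85, all above the healthy maximum of 6.72, with 0.65 ± 0.21, and ZNF426 changed by 0.59 ± 0.21. ZNF267 and ZNF426 lost their calls without replicate 201 (0.55 and 0.47) or 202, and ZNF367 without 201 or 200. The count of 27 called members became 16, 15 and 17 without replicates 201, 200 and 202, 13 within batch 4, and 6 with the actin ratio as a covariate. The actin ratio of all 3 arrays lay below the healthy range. In the silencing machinery the Auto.D36 means of TRIM28 and SETDB1 were 8.36 and 7.73, against 9.10 and 8.14 in healthy animals. Those of UHRF1 and CBX5 were higher, at 7.84 and 7.15 against 5.53 and 6.68. These are group means, given without a test. The cell cycle list rose in 12 of 15 genes (7.94 to 8.83), and 0 of 8 myeloid and 0 of 4 NK cell markers were called. The B cell marker MS4A1 (-1.66), the plasma cell marker JCHAIN (-1.16) and the T cell marker CD5 (-0.52) fell. The part of these lists in the calls was not tested. ZNF genes numbered 500 and over fell in 21 of 110 cases, ZBTB genes in 7 of 33, and ZFP, ZSCAN and ZKSCAN genes in 0 of 28. Of all genes 8.89% fell. Between day 14 and day 36 in the same 3 animals, 0 members passed limma's test (9 members and 1338 of all 11807 genes at an unadjusted p under 0.05), against 0.974% of all genes; 3 passed with the animal as a block, and 4 without Auto.D14 replicate 200.

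Set directly against Auto.D14, NoRx.F had 4 lower members and 0 higher, against 1.43% and 1.9% of all genes, and medians of -0.10 and 0.04. ZNF222 changed by -1.49 ± 0.32 (limma adjusted p = 0.0039), with the 3 Auto.D14 arrays at 7.85, 7.30 and 7.57. ZNF395 changed by -1.35 ± 0.33, ZNF23 by -0.94 ± 0.24 and ZNF7 by -0.72 ± 0.19, and for all 4 genes no NoRx.F array reached an Auto.D14 array. ZNF395 lost the call with the mean over probe sets (-0.17, limma adjusted p = 0.76) and without Auto.D14 replicate 200 (-1.16), ZNF23 without that replicate (-0.88), and ZNF7 without Auto.D14 replicate 201 (-0.64) or NoRx.F replicate 52 (-0.67). The groups share no batch, so the comparison leans on the healthy arrays of each. The count was 8 with animals blocked, 11 without NoRx.F replicate 53, and 9 after renewed quantile normalization, 8 lower and 1 higher. Of the silencing machinery SUV39H1 alone was called, higher by 0.47 ± 0.14. Of the cell cycle list 8 of 15 genes were higher in NoRx.F, as was the plasma cell marker MZB1 (1.12), and their part was not tested.

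The regimens were compared with NoRx.F at the final sample. These comparisons reuse the NoRx.F arrays, so a member that reads low there tends to be higher in any regimen. Siro.F is the group that shares batches with NoRx.F. Here 18 members were higher than in NoRx.F and 0 lower, against 5.39% and 6.67% of all genes, and the medians were 0.12 and -0.02. ZNF222 read 7.48, 7.58, 7.49 and 7.18 in the Siro.F replicates 17, 16, 13 and 18, all above the NoRx.F arrays, and differed by 1.36 ± 0.25 (limma adjusted p = 9.5e-05). ZNF250 read 6.85, 7.08, 7.25 and 7.53, also above every NoRx.F array, and differed by 1.27 ± 0.24. ZNF7 read 8.44, 8.74, 8.86 and 8.73 and differed by 0.75 ± 0.14 (limma adjusted p = 1.8e-04), again without overlap. The 10 largest differences also held ZNF395 at 1.41 ± 0.26, ZNF141 at 0.90, ZNF217 at 0.85, ZNF362 at 0.81, ZNF23 at 0.76, ZNF248 at 0.75 and ZNF407 at 0.71. Of the 126 members, 22 lay above every NoRx.F array and 3 below, against 6.28% and 7.48% of all genes.

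Within batch 1 alone, Siro.F had 14 members higher than NoRx.F and 1 lower, with ZNF222 at 1.54, ZNF395 at 1.45 and ZNF250 at 1.25. The count of 18 was 28 without NoRx.F replicate 53, 10 without 50, 11 without 51 or 52, and 9 without Siro.F replicate 16. The calls of ZNF217 and ZNF248 were lost without NoRx.F replicate 50 (0.70 and 0.64) or Siro.F replicate 16 (0.80 and 0.71), and that of ZNF217 also without NoRx.F replicate 51 or 52 or Siro.F replicate 18 (0.80 to 0.83). ZNF362 was not called within batch 1 (0.58). ZNF395 lost its call with the mean over probe sets (0.33, limma adjusted p = 0.16). By neighbour, 9 of 52 members beside a named zinc finger gene were higher (median 0.28), 6 of 33 beside an unnamed family (0.19) and 3 of 36 between other families (0.02). The split was made after the NoRx.F values were seen. The same NoRx.F arrays are the reference here, so these counts are no independent test of it. In the silencing machinery 4 genes were lower in Siro.F, CBX5 by -1.06 ± 0.30, MTA2 by -0.47 ± 0.13, HDAC1 by -0.35 ± 0.09 and RBBP7 by -0.32 ± 0.09, and 1 was higher. The cell cycle list was at 7.87 to 9.36 in Siro.F, with 11 of 15 genes lower than in NoRx.F. Its part in these differences was not tested, and 0 genes of the lists for other cell types were called.

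FR104.Siro.F had 16 members higher than NoRx.F and 7 lower, against 6.56% and 13.1% of all genes, with medians of 0.11 and -0.08. Its 10 largest rises were ZNF395, ZNF222, ZNF141, ZNF250, ZNF23, ZNF397, ZNF441, ZNF217, ZNF362 and ZNF7. ZNF23 read 7.32, 7.85, 7.47 and 7.32 in replicates 27, 26, 29 and 28 against 6.06 to 6.64 in NoRx.F, without overlap, and differed by 1.17 ± 0.22 (limma adjusted p = 8.7e-05). ZNF222 read 7.83, 8.08, 7.08 and 7.47, above every NoRx.F array, and differed by 1.54 ± 0.30. ZNF395 differed by 1.72 ± 0.31 and ZNF397 by 1.17 ± 0.36, and both lost the call with the mean over probe sets (0.37 and 0.43). The rest ranged from 0.89 ± 0.18 for ZNF7 to 1.23 ± 0.30 for ZNF141. ZNF141 was lifted in part by replicate 29, at 8.07 against 7.20 to 7.29 in the other 3.

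The 7 lower members in FR104.Siro.F were ZNF114, ZNF233, ZNF143, ZNF408, ZNF330, ZNF335 and ZNF384. ZNF143 read 7.05, 7.52, 7.38 and 7.10 against 7.59, 7.87, 7.77 and 8.44 in NoRx.F, without overlap, and differed by -0.68 ± 0.21; the call was lost without NoRx.F replicate 53 (-0.43). ZNF408 differed by -0.53 ± 0.13 (limma adjusted p = 0.0019). ZNF114 read 5.33, 4.87, 5.90 and 4.97 against 6.54, 6.88, 7.21 and 6.25, a difference of -1.43 ± 0.51, and ZNF233 differed by -0.76 ± 0.28, ZNF330 by -0.52 ± 0.17, ZNF335 by -0.51 ± 0.19 and ZNF384 by -0.40 ± 0.14. Each of these 5 lost its call without 1 of several arrays, among them FR104.Siro.F replicate 28 in all 5. By neighbour, 7 of 52 members beside a named zinc finger gene were higher and 1 lower (median 0.27), 7 of 33 beside an unnamed family were higher (0.20), and of 36 between other families 2 were higher and 6 lower (-0.04). This comparison too reuses the NoRx.F arrays and is no independent test of the split. In the silencing machinery 1 gene was higher and 7 lower, among them SUV39H1 by -0.70 ± 0.13, HDAC1 by -0.59 ± 0.12, TRIM28 by -0.66 ± 0.18 and RBBP7 by -0.42 ± 0.11. The cell cycle list was at 7.56 to 8.47, with 12 of 15 genes lower than in NoRx.F. The granulocyte marker LCN2 was higher (2.39), while ELANE of the same list (-0.53) and the plasma cell marker MZB1 (-1.17) were lower. The part of these lists in the differences was not tested.

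The other 4 regimens gave fewer calls against NoRx.F. Tac.Mtx.F had 10 members higher and 1 lower (4.7% and 2.24% of all genes), Bela.F 5 and 0 (1.67% and 0.195%), Bela.Siro.F 10 and 0 (4.22% and 3.53%), and FR104.F 11 and 1 (3.54% and 4.12%). Without NoRx.F replicate 53 Tac.Mtx.F had 19 called members and Bela.F 9. Bela.Siro.F had 5 without its replicate 42. FR104.F had 3 without its replicate 23 or 24 and 7 without NoRx.F replicate 50 or 52. Cell cycle genes were lower than in NoRx.F in 13 of 15 cases for Tac.Mtx.F, 0 for Bela.F, 11 for Bela.Siro.F and 5 for FR104.F. MZB1 was lower in Tac.Mtx.F (-1.14), Bela.Siro.F (-1.20) and FR104.F (-1.11), and LCN2 was higher in Bela.F (2.28) and FR104.F (1.71). Their part in these calls was not tested. Only Siro.F overlapped NoRx.F in batch, so for the other 5 regimens regimen and batch are separated only through the healthy arrays.

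All 6 regimens were set against the same 4 NoRx.F arrays, so their changes are not independent of each other and are given side by side. ZNF222 differed by 1.36 in Siro.F, 1.91 in Tac.Mtx.F, 1.24 in Bela.F, 1.89 in Bela.Siro.F, 1.23 in FR104.F and 1.54 in FR104.Siro.F. For ZNF395 the values were 1.41, 1.53, 1.64, 1.71, 1.16 and 1.72 in the same order. ZNF362 gave 0.81, 1.18, 0.94, 1.14, 0.87 and 0.99, ZNF23 gave 0.76, 0.92, 1.13, 1.12, 0.81 and 1.17, and ZNF7 gave 0.75, 0.80, 0.92, 0.77, 0.60 and 0.89. All 5 were among the largest falls of NoRx.F against healthy animals. The same low NoRx.F arrays are the reference here, so higher values in the regimens are in part built in. With that limit, these 5 genes passed the test in every one of the 6 comparisons. The call of ZNF395 was lost with the mean over probe sets in each of them, with values from 0.11 in FR104.F to 0.37 in FR104.Siro.F. Calls of ZNF222, ZNF23 and ZNF7 were lost in FR104.F without its replicate 23 (1.14, 0.77 and 0.58) or 24 (1.04, 0.67 and 0.47), as was that of ZNF395 (1.18 and 0.81). In FR104.F ZNF23 also needed NoRx.F replicate 52 (0.74 without it), and ZNF7 replicates 50, 51 and 52 (0.55 to 0.57). ZNF222 also lost its call in Bela.F without its replicate 46 (1.02) or NoRx.F replicate 51 (1.12), ZNF23 in Bela.Siro.F without its replicate 42 (0.92), and ZNF7 there without replicate 38, an array of high control signal (0.67). The 2 lower members were ZNF333 in Tac.Mtx.F (-0.72 ± 0.22) and ZNF408 in FR104.F (-0.42 ± 0.14), and each lost its call without 1 of several arrays, ZNF333 also with the mean over probe sets (-0.34). ZNF250 passed in 5 regimens, with 1.27 in Siro.F, 1.04 in Tac.Mtx.F, 1.17 in Bela.Siro.F, 1.55 in FR104.F and 1.19 in FR104.Siro.F. Its call was lost in Tac.Mtx.F without replicate 19 (0.88) or NoRx.F replicate 50 (0.94), and in Bela.Siro.F without replicate 38 (0.94).

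**Figure D4:**
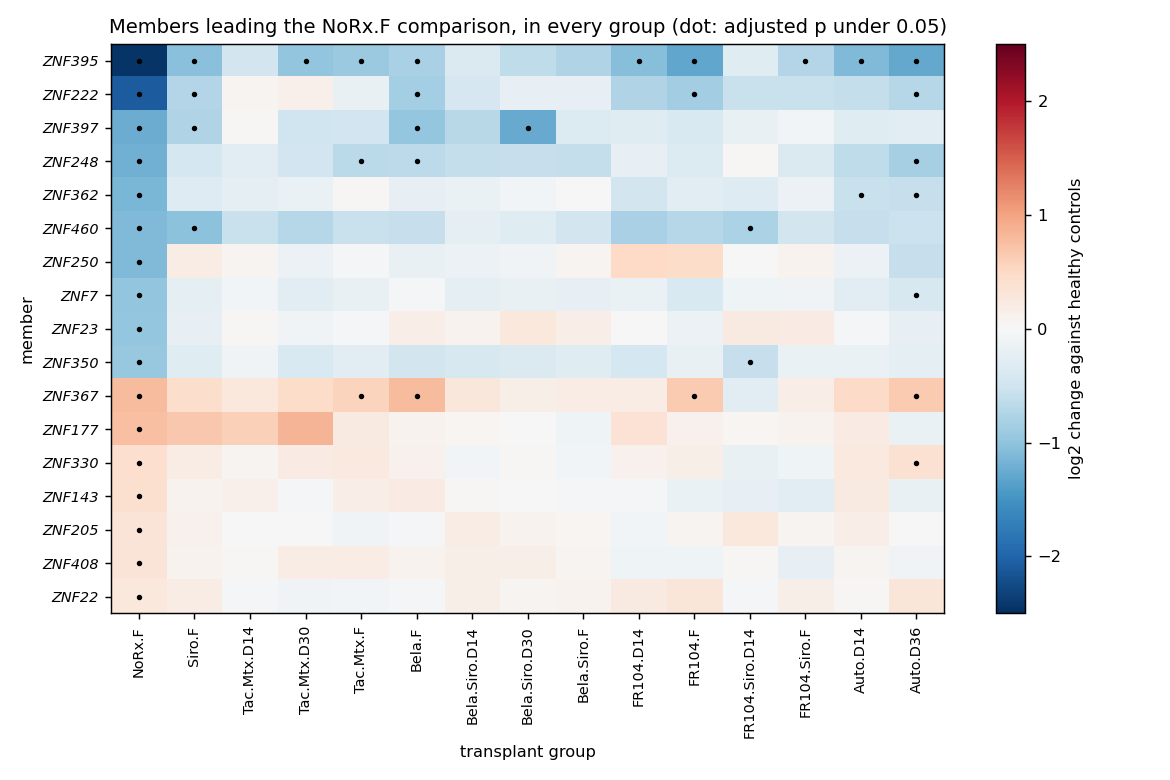
Log2 change against Healthy.Control (colour, blue for lower and red for higher) of the 17 members that lead the NoRx.F comparison (rows) in each transplant group (columns); a dot marks a limma adjusted p under 0.05. All columns share the 34 healthy arrays. The row of ZNF395 is blue in every column, while ZNF23 and ZNF250 are called in NoRx.F alone.

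Against healthy animals the treated groups differed in how many members were called. At the final sample 10 members fell and 2 rose in Siro.F (6.34% and 8.26% of all genes), 10 and 2 in Tac.Mtx.F (3.41% and 10.7%), 15 and 2 in Bela.F (5.25% and 12.4%), 1 and 0 in Bela.Siro.F (0.966% and 1.87%), 9 and 3 in FR104.F (5.28% and 5.39%) and 13 and 1 in FR104.Siro.F (7.15% and 2.91%). Falls outnumbered rises among the members of each group, while over all genes rises were more frequent than falls in 5 of the 6. Single arrays moved these counts. The total was 7 and 5 without Siro.F replicates 13 and 18, 6 and 2 without Tac.Mtx.F replicates 21 and 20, 9 and 5 without Bela.F replicates 47 and 46, and 0 without Bela.Siro.F replicate 42. For FR104.F the total dropped to 2 when replicate 22 was left out and to 7 for replicate 23. For FR104.Siro.F it dropped to 7 for replicate 27 and to 6 for replicate 28. With the actin ratio as a covariate FR104.F had 6 and FR104.Siro.F 7, and within batch 4 alone they had 5 and 0. Bela.Siro.F had 0 with animals blocked.

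ZNF395 was among the 3 largest falls in 4 of the 6 final groups. It changed by -1.05 ± 0.20 in Siro.F (8.22, 8.10, 8.73 and 8.02 in the 4 arrays), -0.93 in Tac.Mtx.F, -0.81 in Bela.F, -1.29 in FR104.F and -0.73 in FR104.Siro.F. In Siro.F, 3 of the 4 arrays lay below the healthy range of 8.54 to 9.95. Its call was lost without Tac.Mtx.F replicate 20 (-0.66), Bela.F replicate 46 (-0.59), FR104.F replicate 22 (-0.96), or FR104.Siro.F replicate 27 or 28 (-0.77 and -0.63). ZNF219, a GC box factor and partner of SOX9, changed by -0.89 ± 0.16 in Siro.F (limma adjusted p = 3.4e-05), where the arrays read 6.23, 6.49, 6.48 and 6.26 against 6.72 to 7.64 in healthy animals. In FR104.F it read 6.07, 6.19 and 6.20 and changed by -1.12 ± 0.19 (limma adjusted p = 1.0e-04). Neither group overlapped the healthy animals. Both changes are those of 1 probe set, which the other probe set of ZNF219 did not follow across the arrays (r = -0.01). ZNF10 changed by -0.98 ± 0.19 in Tac.Mtx.F (5.08, 4.95 and 5.09) and by -0.96 ± 0.19 in Bela.F (5.24, 4.93 and 5.02), and only the first array of Bela.F reached the healthy range of 5.23 to 6.49. In Bela.Siro.F it was the 1 called member, at -0.85, and was lost without replicate 38 (-0.55).

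Further falls among the 3 largest were ZNF460 in Siro.F (-1.03 ± 0.22), ZNF331 in Tac.Mtx.F (-0.73), ZNF397 and ZNF222 in Bela.F (-0.96 and -0.85), ZNF222 in FR104.F (-0.86), and ZNF219 and ZNF394 in FR104.Siro.F (-0.72 and -0.60). Single arrays ended the calls of ZNF331 (Tac.Mtx.F replicate 20), of ZNF397 and ZNF222 (Bela.F replicate 57), of ZNF222 in FR104.F (replicate 22) and of ZNF394 (FR104.Siro.F replicate 28 or 29). The rises were ZNF367 in Tac.Mtx.F (0.55), Bela.F (0.79) and FR104.F (0.65), ZNF442 and ZNF311 in Siro.F (0.67 and 0.55), ZNF326 in Tac.Mtx.F (0.49), ZNF469 in Bela.F (0.60), ZNF268 and ZNF425 in FR104.F (0.59 and 0.55) and ZNF311 in FR104.Siro.F (0.57). Each of these rises lost its call without 1 array. For ZNF367 they were Tac.Mtx.F replicate 21 or 20, Bela.F replicate 46 and FR104.F replicate 22. The cell cycle list reached 8.56 to 9.44 in Bela.F and 8.27 to 9.48 in FR104.F, above the healthy range.

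Markers of other cells moved in the final samples too. The myeloid markers S100A8 and S100A9 were higher than in healthy animals in all 6 regimens. S100A9 differed by 3.05 in Siro.F, 3.86 in Tac.Mtx.F, 6.38 in Bela.F, 5.32 in Bela.Siro.F, 3.95 in FR104.F and 4.57 in FR104.Siro.F. In Bela.F 4 of 8 myeloid markers rose, also FCN1 (2.81) and VCAN (3.21), and CD68 fell (-1.52). The granulocyte markers CAMP (2.36) and LCN2 (2.27), MZB1 (1.32) and the B cell gene CD79B (1.09) also rose there. FR104.F and FR104.Siro.F had higher LCN2 (1.71 and 2.39) and CD79B (0.79 and 0.96), and lower MS4A1 (-1.80 and -1.39), JCHAIN (-1.58 and -1.33) and KLRF1, an NK cell receptor gene (-3.16 and -2.60). CD5 fell in FR104.Siro.F (-0.51). The others called were MZB1 (1.05) and CD79B (0.73) in Siro.F, CAMP (1.80) and the erythroid gene AHSP (1.12) in Tac.Mtx.F, and VCAN (3.24) in Bela.Siro.F. The part of these markers and of the cell cycle list in the calls was not tested.

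**Figure D5:**
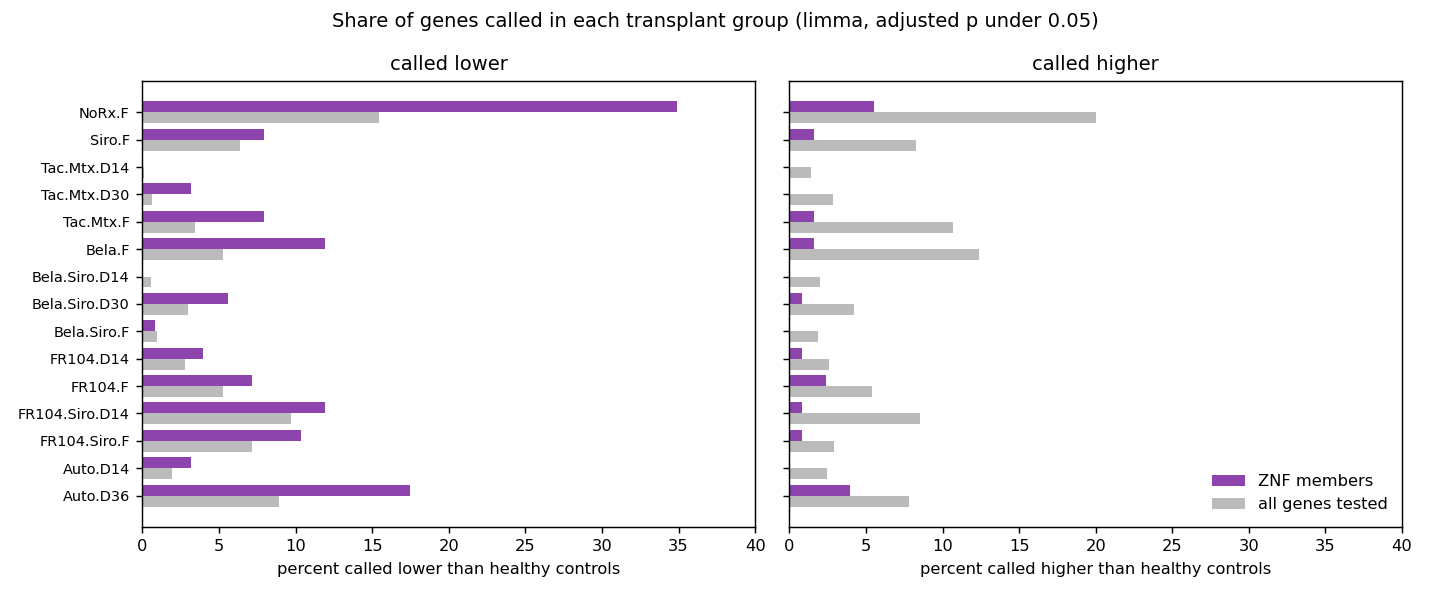
Percent of the ZNF members (purple) and of all 11807 genes tested (grey) called lower (left) and higher (right) than Healthy.Control in each transplant group. In NoRx.F against Healthy.Control 34.9% of the members and 15.4% of all genes fell.

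The earlier samples were set against healthy animals in the same way. Tac.Mtx.D14 and Bela.Siro.D14 had 0 called members by limma, against 1.47% and 2.52% of all genes, with 7 and 29 members, and 1508 and 2225 of all 11807 genes, at an unadjusted p under 0.05. With animals blocked Bela.Siro.D14 had 2. Tac.Mtx.D30 had 4 falls and 0 rises (0.61% and 2.85% of all genes), ZNF395, ZNF219, ZNF10 and ZNF32 (-0.99, -0.95, -0.90 and -0.62), and 0 calls without either of its replicates 20 and 19. Bela.Siro.D30 had 7 falls and 1 rise (2.95% and 4.23%), FR104.D14 5 and 1 (2.8% and 2.58%), and FR104.Siro.D14 15 and 1 (9.68% and 8.52%). S100A9 rose in Tac.Mtx.D14 (3.68), Bela.Siro.D14 (4.53) and Bela.Siro.D30 (4.43), as did S100A8. FCN1 (2.70 and 2.13) and VCAN (2.95 and 2.86) also rose in the latter pair, and the erythroid genes AHSP (2.07), ALAS2 (1.69) and EPB42 (0.71) in Tac.Mtx.D14. HBB of the same list was lower there (-1.33), without a call. The mean of the erythroid list in the Tac.Mtx.D14 arrays ran from 4.83 through a median of 4.97 to 7.64. In healthy arrays it ran from 4.46 to 6.25. The part of these markers in the calls was not tested.

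In Bela.Siro.D30 1 array carried much of the count. ZNF148 read 9.42, 8.69 and 7.54 in replicates 38, 42 and 49 against 8.99 to 9.99 in healthy animals, and ZNF292, a large zinc finger protein linked to brain development, read 9.91, 8.70 and 7.49 against 9.15 to 10.41. Replicate 49 was far below the healthy range for both, and replicate 38 inside it. ZNF148 changed by -1.01 ± 0.18 and ZNF397 by -1.27 ± 0.26, and without replicate 49 neither was called (-0.51 and -0.78). With ZNF195 they were the 3 largest falls that had all arrays on 1 side of the healthy mean. ZNF292 changed by -1.05 ± 0.24, though its arrays did not all lie on 1 side of the healthy mean. The count of 8 became 4 without replicate 49 and 15 without replicate 38, and 5 within batch 3. The rise was ZNF18 (0.42), not called without replicate 49 (0.27).

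In FR104.D14 ZNF219 read 6.37, 6.33 and 6.30, below every healthy array, and changed by -0.94 ± 0.19. ZNF395 changed by -1.07, ZNF91 by -0.72 and the single rise, ZNF267, by 0.88 ± 0.24, with arrays of 9.85, 9.76 and 10.15 above the healthy maximum of 9.70. Without replicate 23, an array of high control signal, 1 member was called, and ZNF395 (-0.87), ZNF91 (-0.61) and ZNF267 (0.76) were not. ZNF395 also lost its call without replicate 22 (-0.94). With the actin covariate 2 were called. S100A9 (4.72), S100A8 (4.00) and LCN2 (1.95) rose, MS4A1 (-1.81) and JCHAIN (-1.45) fell, and 11 of 15 cell cycle genes rose, and their part was not tested. FR104.Siro.D14 was led by other genes. ZNF317 read 7.42, 7.47, 7.39 and 7.51 in replicates 26, 29, 28 and 27 against 7.78 to 8.46 in healthy animals, and ZNF394 read 7.63, 7.82, 7.58 and 7.83 against 7.88 to 8.98. All 4 arrays lay below every healthy array for both. The changes were -0.64 ± 0.13 for ZNF317 (limma adjusted p = 7.3e-04), -0.76 for ZNF394, -0.79 for ZNF45 and -0.78 for ZNF460, which lost its call without replicate 29 (-0.64). Among falls with all arrays on 1 side of the healthy mean, the 3 largest were ZNF460, ZNF394 and ZNF235. The single rise was ZNF414. All 4 arrays of this group had high control signal, so no value without such arrays exists. The count of 16 was 3 with the arrays of day 14 alone, 8 without replicate 29, 9 without replicate 27, and 5 within batch 4. Its cell cycle list ran from 6.57 to 7.30, against 6.68 to 7.74 in healthy animals. S100A9 (3.35), S100A8 (2.83), LCN2 (1.36) and CD79B (0.88) rose, and MS4A1 (-1.50), JCHAIN (-1.31) and KLRF1 (-2.19) fell. Their part in the calls was not tested.

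Late and early samples of the same animals were compared in 3 allogeneic regimens. In FR104 0 of 126 members were called between day 14 and the final sample, and 0 of 11807 genes (0%), with 3 members and 341 genes at an unadjusted p under 0.05. In Bela.Siro 0 members were called between day 14 and day 30, against 0.00847% of all genes, with 7 members and 258 genes at an unadjusted p under 0.05, and 5 members called without Bela.Siro.D30 replicate 38. In FR104.Siro 2 rose and 1 fell, against 1.68% and 1.42% of all genes. In the order of replicates 26, 29, 28 and 27, ZNF219 read 7.15, 7.38, 7.06 and 7.47 early and 6.31, 7.18, 6.24 and 6.50 late. It was lower late in all 4 animals, with 1 late array inside the early range, and had a change of -0.71 ± 0.19 (limma adjusted p = 0.030). In the same order ZNF277 read 8.14, 7.47, 8.03 and 7.59 early and 8.50, 8.04, 8.52 and 8.60 late, higher in all 4 animals, a change of 0.61 ± 0.17, and its groups overlapped by 1 array. ZNF311 read 3.80, 3.75, 4.05 and 4.13 early and 5.25, 4.29, 4.12 and 4.67 late, again higher in all 4, and changed by 0.65 ± 0.19, from a level below the limit of log2 4.65. All 4 early arrays had high control signal, and of the late arrays only replicate 29 did. Changes over time in FR104.Siro cannot be told apart from this technical difference. With animals blocked 7 members were called, and with day 14 arrays alone 0. The count was 0 without FR104.Siro.D14 replicate 29 or 27 or FR104.Siro.F replicate 27 or 26, 1 without FR104.Siro.F replicate 28, 5 without its replicate 29 and 6 without FR104.Siro.D14 replicate 28. The difference of the late change between FR104.Siro and FR104 was called for 0 members and 0 genes by limma (0%), with 2 members and 315 genes at an unadjusted p under 0.05.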

How the data were processed

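Total RNA of sorted CD3+ T cells was extracted with a column kit, converted to biotinylated cRNA and hybridized to rhesus macaque 3′ expression arrays, per the labels' protocols. The authors deposited 1 table of log2 intensity for 81 arrays and 52865 probe sets. RMA and the affy package are named in the submitters' processing notes, which give no versions here. In the healthy arrays 61.0% of probe sets gave a p above 0.95 in an F-test for batch, a range that chance would fill with 5%. A batch adjustment is thus already in the table. Its method, and whether it used the group labels, are not given in the sources used here. P-values between groups can be too small where it removed spread, and with group labels in use the differences themselves could be shifted. Of the probe sets 24969 named 1 gene, 361 several and 27535 none. The probe set of highest mean stood for each of 14133 genes, and 11807 genes exceeded log2 4.65 in at least 2 arrays.

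All 81 arrays were fitted at once with limma 3.58.1 in R 4.3.3 (group and batch as terms, trended eBayes, 62 residual degrees of freedom), with Benjamini-Hochberg adjustment over 11807 genes in each comparison and a threshold of 0.05. Array number, 2 to 4 per transplant group, limits the precision. The animal number in the labels pairs arrays: in all 13 late and early pairs the deviations correlated best with the same animal (r 0.205 to 0.664). Over 17 pairs of a transplant array and the same animal's healthy array, another animal correlated better in 14 (own r -0.195 to 0.337). The animal as a random block (correlation 0.194), an alternative, pools both kinds of pair. On simulated data with 11807 genes and the design of NoRx.F against Healthy.Control, the fit found 31, 44, 47 and 49 of 50 genes shifted by 0.5, 1, 1.5 and 2 on the log2 scale, and 14 of its 185 calls were false. For FR104.Siro.F against NoRx.F it found 13, 43, 44 and 46 of 50, and 6 of its 152 calls were false. The simulated noise was normal and independent between arrays, without batch effects or shared animals. The members and lists were chosen with earlier results of these data known. Named were the 10 largest changes in each direction in the leading comparisons and the 3 largest elsewhere, among called members with all arrays on 1 side of the reference mean, the 10 widest spans of group means, the genes at the limit and the listed roles. The brightest and dimmest members in healthy animals are not ranked, since levels of different probe sets cannot be compared. The alternatives were a fit without batch, no filter, the mean over probe sets, renewed quantile normalization, single batches, day 14 arrays alone and leaving out each array. Leaving out arrays of high control signal and an actin covariate were added after seeing the data. Sequences of the members are not used here.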

Additional observations from a re-analysis of the deposited data

Results flagged for a closer look

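In groups of 4 arrays, 68 values of named members were checked for a single array far from the other 3, and 3 were found, where chance gives about 5 in 100. ZNF141 stood at log2 8.07 in FR104.Siro.F replicate 29, an array of high control signal, against 7.20 to 7.29 in the other 3. ZNF460 stood at 6.67 in NoRx.F replicate 51 against 7.22 to 7.31. ZNF7 stood at 8.34 in NoRx.F replicate 53, the array of batch 2, against 7.76 to 7.82.

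The change against healthy animals differed between the early and the final FR104.Siro samples, by limma's test of that difference, for ZNF219 (-0.71), ZNF277 (0.61) and ZNF311 (0.65). None of the 3 was called with the day 14 arrays alone (-0.55, 0.33 and 0.66). Every early array had high control signal, and these differences cannot be told apart from it.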

How the results depend on the processing

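The fit without batch raised counts of called members for 16 comparisons. Against Healthy.Control they became 16 for Auto.D14, 44 for Auto.D36, 20 for Siro.F, 4 for Bela.Siro.D14, 14 for Bela.Siro.D30, 3 for Bela.Siro.F, 13 for FR104.D14, 24 for FR104.F, 36 for FR104.Siro.D14 and 25 for FR104.Siro.F. Against NoRx.F they became 21 for Tac.Mtx.F, 12 for Bela.F, 17 for Bela.Siro.F, 28 for FR104.F and 40 for FR104.Siro.F, and for NoRx.F against Auto.D14 19. With the replicate block (the animal, which pairs the arrays) the counts were 10 for Auto.D14, 2 for Bela.Siro.D14 and 0 for Bela.Siro.F against Healthy.Control, 8 for NoRx.F against Auto.D14, 3 for Auto.D36 against Auto.D14 and 7 for FR104.Siro.F against FR104.Siro.D14; it moved no other count by over 1.5 times. With the actin covariate, added after seeing the data, they were 7 for Auto.D14, 6 for Auto.D36, 1 for Bela.Siro.D14, 2 for FR104.D14, 6 for FR104.F and 7 for FR104.Siro.F against Healthy.Control. Within single batches they were 8 for NoRx.F (batch 2), 4 for Siro.F (batch 1), 2 for Bela.Siro.D14, 5 for Bela.Siro.D30 and 2 for Bela.Siro.F (batch 3), and 0 for Auto.D14, 13 for Auto.D36, 1 for FR104.D14, 5 for FR104.F, 5 for FR104.Siro.D14 and 0 for FR104.Siro.F (batch 4); these fits hold fewer arrays. The mean over probe sets gave 2 for Auto.D14 against Healthy.Control, 1 fall and 1 rise, and 1 for Auto.D36 against Auto.D14, and renewed quantile normalization gave 9 for NoRx.F against Auto.D14 and 5 for FR104.Siro.F against FR104.Siro.D14, 4 lower and 1 higher. Without the arrays of high control signal, also added after seeing the data, Auto.D14 had 0, FR104.D14 1 and Bela.Siro.F 2. With day 14 arrays alone FR104.Siro.D14 had 3 and FR104.Siro.F against it 0. The quantile setting also shifted the split for FR104.Siro.D14 against Healthy.Control to 8 lower and 3 higher, and the mean over probe sets that for FR104.F against NoRx.F to 8 higher and 2 lower. No filter moved no count by over 1.5 times. The cause of these shifts was not tested.

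Leaving out each array in turn gave 42 to 49 for NoRx.F, 0 to 7 for Auto.D14, 15 to 17 for Auto.D36, 5 to 11 for Siro.F, 0 to 0 for Tac.Mtx.D14 and for Tac.Mtx.D30, 2 to 10 for Tac.Mtx.F, 5 to 13 for Bela.F, 0 to 0 for Bela.Siro.D14, 4 to 15 for Bela.Siro.D30, 0 to 1 for Bela.Siro.F, 1 to 7 for FR104.D14, 2 to 13 for FR104.F, 8 to 18 for FR104.Siro.D14 and 6 to 18 for FR104.Siro.F against Healthy.Control; where 1 array was left in a group it was assumed to vary like the others. It gave 3 to 11 for NoRx.F against Auto.D14, and against NoRx.F 9 to 28 for Siro.F, 8 to 19 for Tac.Mtx.F, 4 to 9 for Bela.F, 5 to 12 for Bela.Siro.F, 3 to 18 for FR104.F and 17 to 25 for FR104.Siro.F. Over time it gave 0 to 4 for Auto, 0 to 0 for FR104, 0 to 6 for FR104.Siro and 0 to 5 for Bela.Siro, and 0 to 0 for the difference between FR104.Siro and FR104. Among single members, ZNF205 in NoRx.F turned to -0.015 within batch 2.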
